A study of Arabidopsis thaliana with 16 samples.

Results

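Rubisco, the enzyme that fixes CO2 in the chloroplast stroma, is built from large subunits encoded in the chloroplast and small subunits encoded by the nuclear RBCS genes. The small subunits are made in the cytosol as precursors, imported through the TOC and TIC complexes and assembled with the large subunits by chaperonins and dedicated assembly factors. Rubisco activase, encoded by RCA, is an ATP-driven chaperone that pulls inhibitory sugar phosphates off the active site, and it is known as a heat-sensitive step of photosynthesis. Described here are the 5 Arabidopsis thaliana genes for these proteins, taken by locus code from a table of 32833 loci: RBCS1A (AT1G67090), RBCS1B (AT5G38430), RBCS2B (AT5G38420), RBCS3B (AT5G38410) and RCA (AT2G39730).

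The study sequenced polyadenylated RNA from roots and shoots of wild-type seedlings that were 10 days old. All seedlings grew for 4 days at 22 °C and then for 6 days in 1 of 3 regimes: a gradient regime in which 32 °C applied to shoots only and temperature decreased along the root zone, a uniform 32 °C, or a uniform 22 °C. Genotypes other than wild type and added agents are not named in the labels, and every regime shares the same first days at 22 °C. The table has 16 columns, of which replicates 2 and 3 of the gradient shoots hold equal values at every locus, as do replicates 1 and 2 of the 22 °C roots. Both pairs entered once each. The 14 distinct libraries are 2 gradient, 3 32 °C and 2 22 °C shoots, and 3 gradient, 3 32 °C and 1 22 °C roots. The labels do not say whether replicates came from separate cultures, so p-values measure only the spread between these samples. The labels of the organs fitted the sums of their markers: 8 green tissue markers summed to 490463 to 991446 in shoots and 934 to 4177 in roots, and 7 root markers to 56011 to 315362 in shoots and 392322 to 833012 in roots. Most of the root marker sum was PYK10. Of the 7, NRT2.1 overlapped between the organs, at 15 to 72 in roots and 7 to 37 in shoots, and the rest did not. Values are whole-number normalised counts with column totals between 33075029 and 34769425, and read depth is unknown.

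In the RefSeq annotation of TAIR10.1, RBCS1A lies alone on chromosome 1 (chr1:25048158-25049667, minus strand). RBCS3B (chr5:15376988-15378642), RBCS2B (chr5:15380907-15382071) and RBCS1B (chr5:15383167-15385320) follow each other on the minus strand of chromosome 5, with 2 other annotated genes between the first and the last of them. RCA is on chromosome 2 (chr2:16570746-16573692, minus strand), and its 3′ end overlaps a gene of the other strand, AT2G39725, by 3 bases. These coordinates come from the reference, since the deposited table gives locus codes and no build. The coding sequences of RBCS1B and RBCS2B are 97.3% identical, with 15 substitutions over 546 bases, whereas RBCS1A and RBCS1B are 89.9% identical. Reads could therefore be shared between copies, and how the authors counted such reads is not given in the labels or the table. Of all 50-base windows of the longest-coding transcript, 98.5% occurred in no other gene for RBCS1A, 81.6% for RBCS3B, 78.6% for RBCS2B and 67.4% for RBCS1B, against 100% for RCA. At 100 bases the share was 100% for RBCS1A and RBCS2B, 87.9% for RBCS3B and 81.9% for RBCS1B. The value of RBCS1B is accordingly the least certain of the 5. For comparison, AT5G36700 (PGLP1) shares every 50-base window with other loci, most often AT5G36790, and was listed at only 9 and 13 in gradient shoots, 7 to 13 in 32 °C shoots, and 1 and 8 in 22 °C shoots. AT5G36790 was listed at 53 and 75 in gradient shoots, 64 to 71 in 32 °C shoots, and 37 and 39 in 22 °C shoots.

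RBCS promoters are known for a light-responsive unit that combines a G-box, the site of GBF-type bZIP factors, with I-boxes. The G-box core CACGTG was present once within 400 bases before the start codon of RBCS1A, RBCS2B, RBCS3B and RCA, and its letters were not found in that window of RBCS1B. The I-box core GATAAG was present in all 4 RBCS genes and not in that window of RCA, with 1 further copy on the other strand in RBCS2B and RBCS3B. The stretches below are shown because they are where the promoter of RBCS1B departs from those of its relatives. Any part of these sites in the levels of the genes was not tested. Each stretch is 30 bases of the coding strand, with the motif core in capitals and the TAIR10.1 position after the name.
RBCS1A G-box, chr1:25049491-25049520, minus strand: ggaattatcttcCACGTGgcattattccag
RBCS2B G-box, chr5:15382177-15382206, minus strand: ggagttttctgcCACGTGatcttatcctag
RBCS3B G-box, chr5:15378506-15378535, minus strand: ggagttttctgcCACGTGgccttatcctag
RCA G-box, chr2:16573579-16573608, minus strand: ataaacatattcCACGTGgaccaatcaaaa
RBCS1A I-box, chr1:25049456-25049485, minus strand: caagccGATAAGggtctcaacacctctcct
RBCS1B I-box, chr5:15385302-15385331, minus strand: aagaaaGATAAGATAAGggtgtcaacacct
RBCS2B I-box, chr5:15382142-15382171, minus strand: caaatcGATAAGggtgtcaacacctttcct
RBCS3B I-box, chr5:15378471-15378500, minus strand: cgtaccGATAAGggtgtcaacacctttcct
In RBCS1A, RBCS2B and RBCS3B, a pair of I-box cores on the coding strand flanked the G-box at a distance of 53, 52 and 52 bases from the first to the last. In RBCS1B the pair lay 5 bases apart, so that the cores overlapped by 1 base. Over the 24 bases that begin at the last I-box core, the 3 chromosome 5 genes had the same letters, and RBCS1A matched each of them at 22. Some annotated transcripts start upstream of or within these sites: 1 of 2 for RBCS1A, 1 of 2 for RBCS1B, 1 of 3 for RBCS3B, 2 of 3 for RCA, and none for RBCS2B. Read on both strands, the G-box core stood in the same window of 7.87% of 27443 protein-coding genes, the I-box core in 19.4%, and both in 1.65%. The GT-1 core GGTTAA, in 20.1% of windows, was found in RBCS1A, RBCS1B and RBCS2B, and CCAATC, the core of the GLK site, in 17.6% of windows, was found 3 times in RCA and in none of the RBCS genes. The heat shock element core GAANNTTC, in 17.3% of windows, was found in none of the 5. A match is a description of letters, and no match says nothing about the factor.

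In shoots, RBCS1A was lower and RBCS1B, RBCS2B, RBCS3B and RCA were higher at 32 °C and in the gradient than at 22 °C, on the values as deposited. RBCS1B showed the largest difference of the 5, 6.43-fold at 32 °C and 7.37-fold in the gradient. The share of RBCS1A in the sum of the 4 RBCS genes was lower in every warm library than in both 22 °C libraries. The sum itself differed by 0.14 or less on the log2 scale between regimes as deposited, and was lower in both warm regimes than at 22 °C after trimmed mean of M-values (TMM) scaling, which centres most genes near 0. The fall of RBCS1A and the rise of RBCS1B held in both comparisons as deposited, with equal totals and after TMM scaling, and the rises of the other 3 were lost after TMM scaling.

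RBCS1A, the most abundant small subunit gene in each of these shoot libraries, had 214273 and 241115 normalised counts in gradient shoots, 206091, 210145 and 228862 in 32 °C shoots, and 317972 and 309122 in 22 °C shoots. Both warm regimes lay below both 22 °C libraries without overlap. The log2 difference was -0.55 ± 0.11 at 32 °C over 22 °C (SE; adjusted p = 0.00301, limma with Benjamini-Hochberg adjustment) and -0.46 ± 0.12 in the gradient over 22 °C (adjusted p = 0.0113). Both comparisons use the same pair of 22 °C libraries. Among all 21877 genes tested in shoots, 13% were called lower at 32 °C and 11.2% lower in the gradient. The gradient result rests in part on 1 library: without gradient shoot replicate 1 the difference was -0.38 with an adjusted p of 0.0639.

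RBCS1B is the gene at the upstream end of the chromosome 5 cluster. It had 25318 and 29677 normalised counts in gradient shoots, 22570, 24454 and 24856 in 32 °C shoots, and 3700 and 3741 in 22 °C shoots. Every warm library stood far above both 22 °C libraries. The log2 difference was 2.69 ± 0.09 at 32 °C over 22 °C (adjusted p = 7.2e-07, limma) and 2.88 ± 0.09 in the gradient over 22 °C (adjusted p = 1.47e-06). At 32 °C, 1183 of the 21877 genes had a larger log2 difference than RBCS1B, and in the gradient 790 had. A call of higher was common: 55.5% of genes were called higher at 32 °C and 52.6% in the gradient, so a call of higher in itself is near the background.

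RBCS2B, in the middle of the cluster, had 106265 and 108870 normalised counts in gradient shoots, 83437, 93840 and 110100 in 32 °C shoots, and 53763 and 60756 in 22 °C shoots. Its log2 difference was 0.74 ± 0.13 at 32 °C over 22 °C (adjusted p = 0.00133, limma) and 0.91 ± 0.14 in the gradient over 22 °C (adjusted p = 0.000858). RBCS3B had 160149 and 187755 in gradient shoots, 146274, 150229 and 160730 in 32 °C shoots, and 110539 and 114553 in 22 °C shoots. For RBCS3B the log2 difference was 0.44 ± 0.11 at 32 °C (adjusted p = 0.00737, limma) and 0.62 ± 0.12 in the gradient (adjusted p = 0.00233). For neither gene did a warm library overlap a 22 °C library.

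RCA, the activase gene, had 184767 and 181722 normalised counts in gradient shoots, 183610, 184313 and 188317 in 32 °C shoots, and 130462 and 141055 in 22 °C shoots. The 5 warm libraries lay within a narrow band above both 22 °C libraries. The log2 difference was 0.45 ± 0.09 at 32 °C over 22 °C (adjusted p = 0.00324, limma) and 0.43 ± 0.10 in the gradient over 22 °C (adjusted p = 0.00693).

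**Figure D1:**
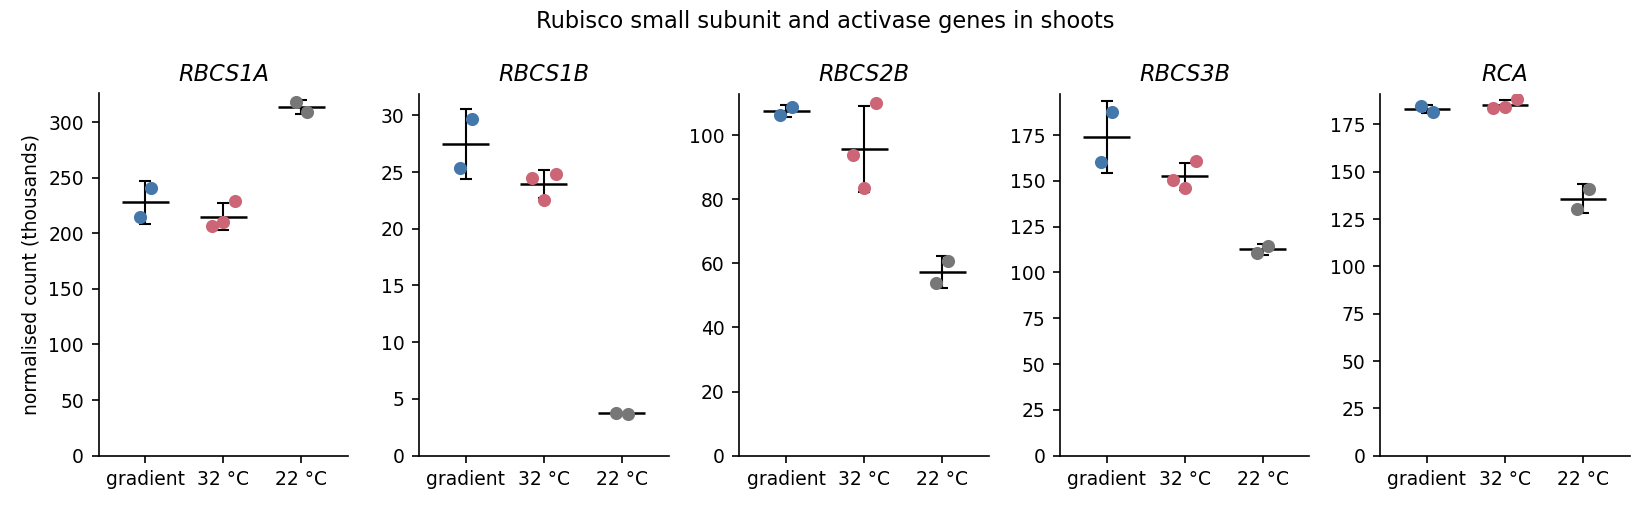
Normalised counts (in units of 1000, y axis from 0, each gene on its own scale) of the 5 genes in shoots of the gradient, 32 °C and 22 °C regimes. Points are distinct libraries (2, 3 and 2), lines are means and bars are SD; RBCS1A is lower and the other 4 genes are higher in both warm regimes than at 22 °C.

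The direction of the smaller differences depended on how libraries were scaled. As deposited, the median log2 difference of all tested genes was 0.49 in both comparisons with 22 °C, so RBCS3B and RCA at 32 °C lay just below that median and RBCS2B above it. After TMM rescaling the median was 0.04. RBCS1A then differed by -1.001 at 32 °C over 22 °C (adjusted p = 0.000893, limma) and RBCS1B by 2.23 (adjusted p = 3.42e-06). RBCS2B had 0.28 (adjusted p = 0.166), RBCS3B -0.02 (adjusted p = 0.915) and RCA -0.01 (adjusted p = 0.977) at 32 °C, and none of these passed. In the gradient over 22 °C, the values after TMM were 0.46 for RBCS2B (adjusted p = 0.0571), 0.17 for RBCS3B (adjusted p = 0.375) and -0.02 for RCA (adjusted p = 0.93). Over all genes the share of calls that were higher at 32 °C was 80.98% as deposited and 51.71% after TMM. Which scaling is closer to RNA per cell was not tested. In RNA from whole shoots, fewer cells of a type and less RNA per cell cannot be told apart.

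**Figure D2:**
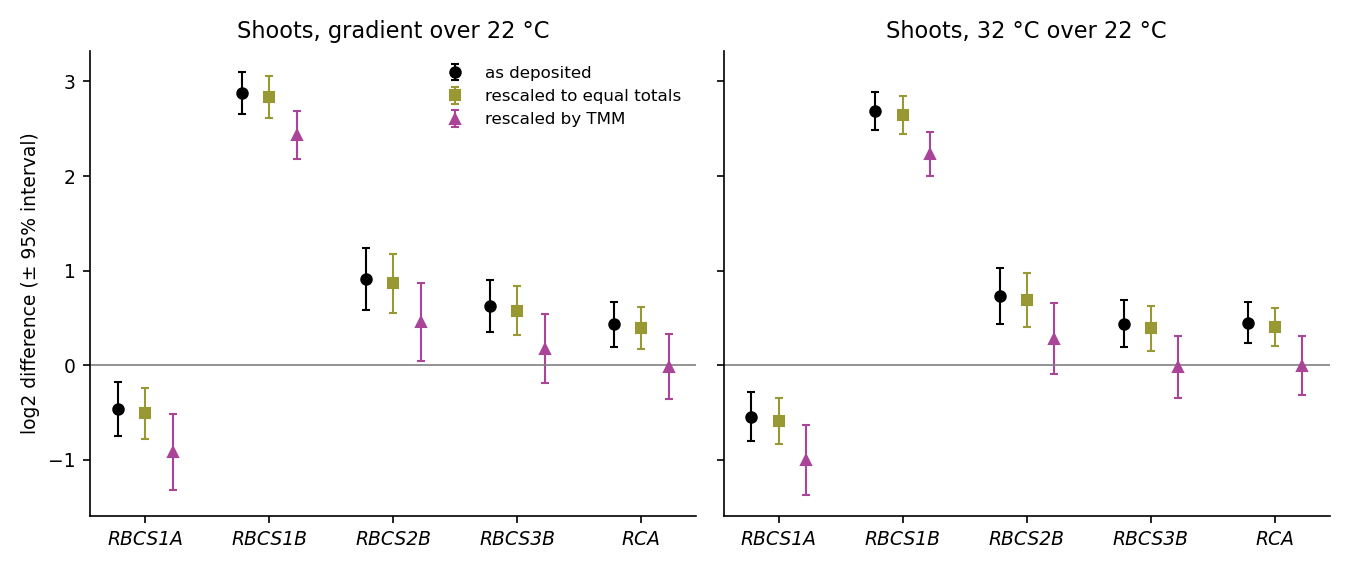
Log2 difference of each gene in shoots (y axis) for the gradient over 22 °C (left) and 32 °C over 22 °C (right), with 95% intervals, for values as deposited (circles), rescaled to equal totals (squares) and rescaled by TMM (triangles). RBCS1A stays below 0 and RBCS1B above 2 under each scaling, while the TMM values of RBCS3B and RCA lie within 0.2 of 0.

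Ratios between the RBCS genes do not depend on any scaling of the libraries. RBCS1A supplied 42.4% and 42.5% of the summed RBCS values in gradient shoots, 43.4%, 45.4% and 43.6% in 32 °C shoots, and 65.4% and 63.3% in 22 °C shoots. The chromosome 5 genes together made up 54.6% to 57.6% of the pool in the warm libraries, and 34.6% and 36.7% at 22 °C. The mean share of RBCS1A differed by -20.2 percentage points at 32 °C over 22 °C, with SDs of 1.11 in 3 libraries and 1.48 in 2. In the gradient over 22 °C it differed by -22.0 points, with SDs of 0.104 and 1.48 in 2 libraries each. In an exact two-sided permutation test over libraries these gave p = 0.2 and p = 0.333, which are the smallest values that 3 against 2 and 2 against 2 libraries can give, so the design cannot reach 0.05 for a single value.

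RBCS1B alone made up 5.004% and 5.23% of the RBCS sum in gradient shoots, 5.15%, 4.88% and 4.74% in 32 °C shoots, and 0.77% and 0.758% in 22 °C shoots. Per 100 normalised counts of RBCS1A there were 11.8 and 12.3 of RBCS1B in gradient shoots, 11.9, 10.7 and 10.9 in 32 °C shoots, and 1.18 and 1.197 in 22 °C shoots. Within the chromosome 5 cluster the genes also moved apart. There were 15.8 of RBCS1B per 100 of RBCS3B in both gradient libraries, 15.4 to 16.3 in 32 °C shoots, and 3.23 and 3.38 in 22 °C shoots. RBCS3B is the gene with which RBCS1B shared most windows, at 50 and at 100 bases, so shared reads could affect this ratio. RBCS2B stood at 66.4 and 58.0 per 100 of RBCS3B in gradient shoots, 57.0 to 68.5 in 32 °C shoots, and 48.6 and 53.0 in 22 °C shoots.

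The sum of the 4 RBCS genes was 506005 and 567417 in gradient shoots, 462426, 474614 and 524548 in 32 °C shoots, and 486015 and 488131 in 22 °C shoots. The 32 °C libraries fell on both sides of the 22 °C pair (exact permutation p = 1), and the gradient libraries lay above it (exact permutation p = 0.333, the smallest possible). This order depended on the scaling. After TMM the sum was 465558 and 517283 in gradient shoots, 409407, 431150 and 496086 in 32 °C shoots, and 599440 and 620330 in 22 °C shoots, so that every warm library lay below both 22 °C libraries. The log2 difference was then -0.46 at 32 °C over 22 °C and -0.31 in the gradient over 22 °C (exact permutation p = 0.2 and p = 0.333, the smallest possible), against 0.14 in the gradient as deposited. With RCA added, the 5 genes took 2.01% and 2.19% of the column total in gradient shoots, 1.89% to 2.07% in 32 °C shoots, and 1.86% and 1.88% in 22 °C shoots.

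**Figure D3:**
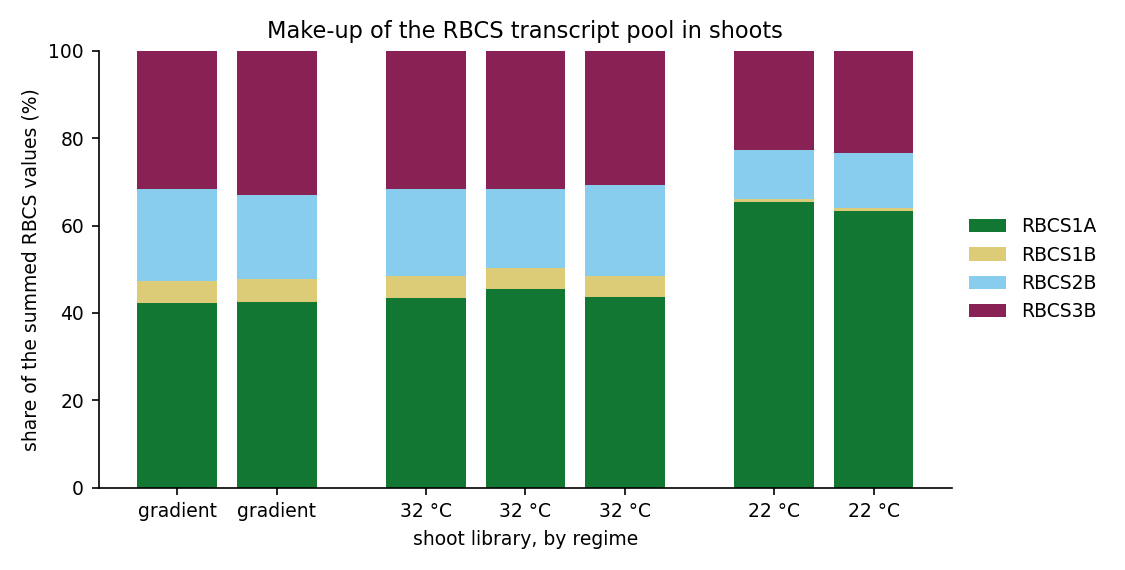
Share of the summed normalised counts of the 4 RBCS genes that each gene supplies (y axis, percent) in each distinct shoot library, one bar per library, ordered gradient, 32 °C, 22 °C. RBCS1A takes 42.4% to 45.4% of the bars of the warm regimes and 63.3% and 65.4% at 22 °C, and RBCS1B is barely visible at 22 °C.

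Levels can be compared between genes only per length. Per kilobase of coding sequence in 22 °C shoots, RBCS1A stood at 577400 ± 11520, RBCS3B at 200600 ± 5059, RBCS2B at 104900 ± 9056, RCA at 95270 ± 5256 and RBCS1B at 6814 ± 53.1 normalised counts (SD, n = 2). RBCS2B and RCA overlapped there, and the other neighbours did not. Per coding length the order was the same in 32 °C and in gradient shoots, with no overlap between neighbours. Transcripts exceed coding sequences by unlike factors, at 935 against 546 bases for RBCS2B and 1977 against 1425 for RCA. In 22 °C shoots, the order of the means of these 2 genes therefore depends on the length chosen. RBCS1B remained the lowest of the 5 per coding length in the warm regimes, at 50360 ± 5645 in gradient shoots (SD, n = 2) and 43880 ± 2235 in 32 °C shoots (SD, n = 3). The ratio of RCA to the RBCS sum, each per coding length, was 0.141 and 0.123 in gradient shoots, 0.149, 0.154 and 0.138 in 32 °C shoots, and 0.103 and 0.111 in 22 °C shoots. Its log2 difference was 0.46 at 32 °C over 22 °C and 0.30 in the gradient over 22 °C, again with exact permutation p-values at their smallest, 0.2 and 0.333.

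Gradient and 32 °C shoots, which share the shoot temperature and differ in the root zone, were not told apart by any of the 5 genes. The log2 differences of the gradient over 32 °C were 0.08 (95% interval -0.18 to 0.34) for RBCS1A, 0.20 (-0.01 to 0.40) for RBCS1B, 0.18 (-0.12 to 0.47) for RBCS2B, 0.19 (-0.06 to 0.44) for RBCS3B and -0.02 (-0.23 to 0.20) for RCA. With limma, 0 of the 5 passed, and 0 had an unadjusted p below 0.05. Over all genes 0.389% were called in either direction. The share of RBCS1A differed by -1.75 percentage points, with both gradient libraries below the 3 at 32 °C (exact permutation p = 0.2, the smallest possible).

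The genes around Rubisco were read from lists chosen by function. A list of 17 nuclear genes tested held chaperonins and assembly factors, and also MRL1 and CBBY, which are neither. Of these 17, 14 rose and 1 fell in 32 °C over 22 °C shoots, with a median log2 difference of 1.14, beside 55.5% higher, 13% lower and a median of 0.49 for all genes. After TMM, 12 rose and 3 fell, with a median of 0.69, beside 32.4%, 30.3% and 0.04 for all genes. In the gradient over 22 °C, 15 rose and 1 fell, with a median of 1.31, beside 52.6%, 11.2% and 0.49. Cpn60beta2, a beta subunit of the chloroplast chaperonin that folds the large subunit, had the largest rise: 10275 and 10948 in gradient shoots, 12265, 14341 and 11167 in 32 °C shoots, and 1177 and 921 in 22 °C shoots. The log2 difference was 3.59 at 32 °C over 22 °C (adjusted p = 1.17e-06, limma) and 3.35 in the gradient (adjusted p = 3.59e-06). Cpn60beta3 rose 6.05-fold at 32 °C (adjusted p = 3.79e-07, limma) and Cpn60alpha2 by 2.51 on the log2 scale in the gradient (adjusted p = 3.85e-05).

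RbcX1, an assembly chaperone of the large subunits, was the 1 member of that list that fell on the values as deposited. It had 350 and 387 normalised counts in gradient shoots, 129, 136 and 149 in 32 °C shoots, and 651 and 692 in 22 °C shoots, so that no 2 regimes overlapped. Its log2 difference was -2.28 at 32 °C over 22 °C (adjusted p = 4.37e-06, limma), -0.87 in the gradient over 22 °C (adjusted p = 0.000775) and 1.41 in the gradient over 32 °C (adjusted p = 0.014). Its relative RbcX2 had 0.11 at 32 °C over 22 °C and did not pass (adjusted p = 0.196, limma). Cpn60beta3 was the other gene of the list called between the warm regimes, at -0.47 in the gradient over 32 °C (adjusted p = 0.0441, limma). The chloroplast locus ATCG00490 had 1796 and 7195 in gradient shoots, 1764, 5389 and 6703 in 32 °C shoots, and 409 and 629 in 22 °C shoots. Since the libraries were made from polyadenylated RNA, chloroplast transcripts are captured only in part, and these values are not levels of plastid RNA.

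Of the 20 Calvin-Benson cycle genes after Rubisco, 14 rose and 3 fell at 32 °C over 22 °C, with a median of 0.36, beside 55.5% higher, 13% lower and a median of 0.49 for all genes. After TMM, 4 rose and 7 fell, with a median of -0.10, beside 32.4%, 30.3% and 0.04 for all genes. In the gradient over 22 °C, 13 rose and 2 fell, with a median of 0.34, beside 52.6%, 11.2% and 0.49, and in the gradient over 32 °C none of the 20 was called. TKL2 (AT2G45290), a transketolase, rose by 2.53 (adjusted p = 6.75e-07, limma). It is the minor copy in shoots, at 1.49 and 1.47 per 100 of TKL1 at 22 °C and 6.2 to 6.8 at 32 °C. TKL1 rose by 0.40 (adjusted p = 0.00221, limma), and reads shared by the copies were not checked. CP12-2, a small protein that binds and inactivates cycle enzymes in the dark, rose by 1.41 (adjusted p = 8.78e-06, limma). PRK, the phosphoribulokinase that makes the substrate of Rubisco, fell by 0.52 (adjusted p = 0.000377, limma). GAPA (AT3G26650), a glyceraldehyde 3-phosphate dehydrogenase subunit, fell by 0.28 (adjusted p = 0.0131, limma). The other genes of that enzyme did not fall as deposited: GAPA2 had 0.02 (adjusted p = 0.825, limma) and GAPB rose by 0.94 (adjusted p = 1.85e-05). PRK and GAPA fell after TMM too, by 0.98 and 0.73 (adjusted p = 7.11e-05 and 0.000206, limma).

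Photorespiration salvages the product that Rubisco makes when it takes oxygen in place of CO2. Of 17 genes of that list, 9 rose and 4 fell at 32 °C over 22 °C, with a median of 0.32. The 9 rises are a share near the 55.5% of all genes called higher, and 13% of all genes were called lower. After TMM, 6 rose and 8 fell, with a median of -0.14, beside 32.4% and 30.3% of all genes. In the gradient over 22 °C, 8 rose and 1 fell, with a median of 0.32, beside 52.6% and 11.2% of all genes, and in the gradient over 32 °C none was called. GLDP1, the P-protein of glycine decarboxylase, rose by 1.62 (adjusted p = 7.06e-06, limma), and AGT, which transfers an amino group to glyoxylate, fell by 1.48 (adjusted p = 7.76e-06). Of the 2 carbonic anhydrases, CA1 rose by 0.72 (adjusted p = 0.000212, limma), a call that was lost after TMM (0.26, adjusted p = 0.0857), and CA2 fell by 0.96 (adjusted p = 8.44e-05). Of 9 genes for chloroplast import of precursors, 7 rose and 1 fell at 32 °C over 22 °C, with a median of 0.31, beside 55.5% and 13% of all genes and their median of 0.49. After TMM, 1 rose and 4 fell, with a median of -0.15, beside 32.4% and 30.3% of all genes. The gene that fell was TOC33, a receptor of the outer envelope, by 0.37 (adjusted p = 0.0066, limma).

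Of 7 regulators of RBCS promoters and chloroplast genes, 3 fell and 1 rose at 32 °C over 22 °C, with a median of -0.14, beside 13% of all genes called lower and 55.5% higher. After TMM, 5 fell and 0 rose, with a median of -0.59, beside 30.3% lower and 32.4% higher. GBF1, a bZIP factor that binds the G-box, fell by 1.14 (adjusted p = 3.07e-05, limma), GLK2, an activator of chloroplast genes, by 0.86 (adjusted p = 9.57e-05), and GBF2 by 0.66 (adjusted p = 0.00122). GUN1, a plastid protein of signalling to the nucleus, rose by 0.35 (adjusted p = 0.00139, limma) and had -0.11 after TMM. In the gradient the same 3 fell and GUN1 rose, the comparison sharing the 22 °C libraries: GBF1 fell by 0.89 (adjusted p = 0.000218), GLK2 by 0.83 (adjusted p = 0.000229) and GBF2 by 0.64 (adjusted p = 0.00269, limma). GLK1, the relative of GLK2, had 0.07 at 32 °C over 22 °C as deposited and did not pass (adjusted p = 0.586, limma). HY5, a light-signalling bZIP factor, had 0.05 and did not pass either (adjusted p = 0.824, limma).

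**Figure D4:**
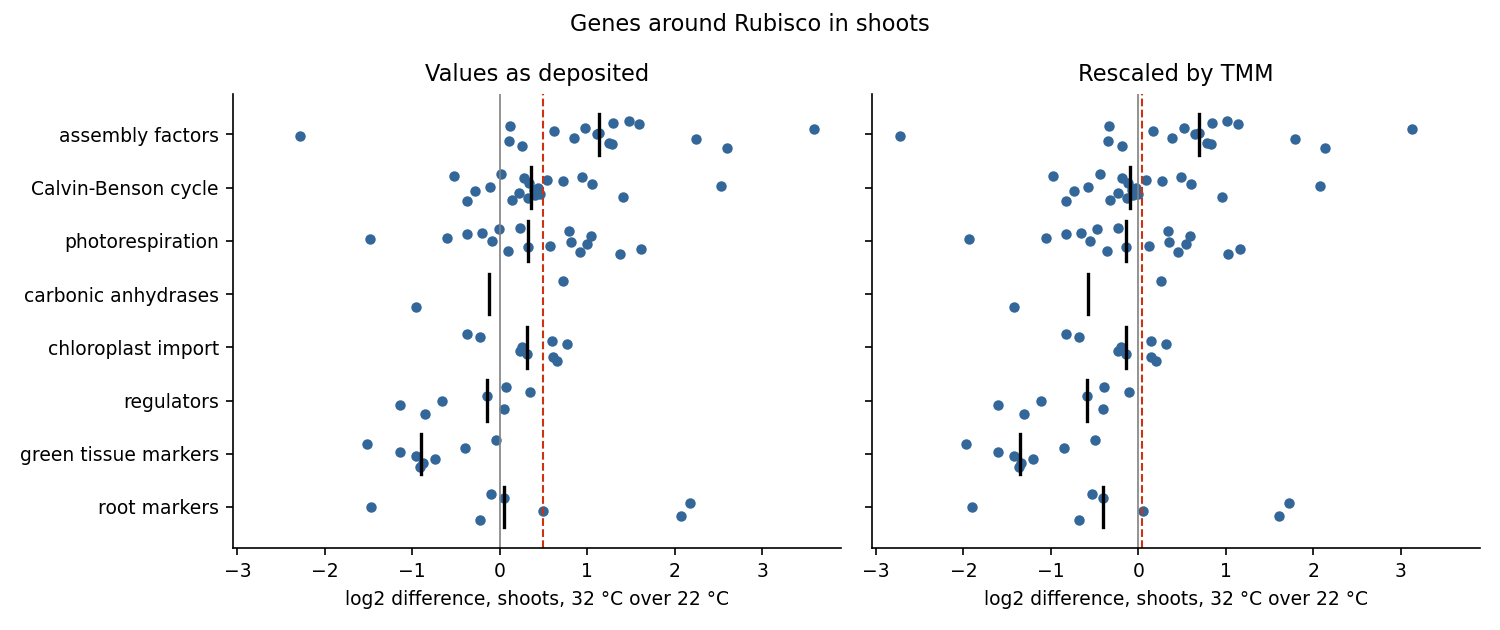
Log2 difference in 32 °C over 22 °C shoots (x axis) of each nuclear gene in the lists around Rubisco, for values as deposited (left) and rescaled by TMM (right). Points are genes, black bars the list medians, and the dashed line the median of all tested genes, 0.49 as deposited and 0.04 after TMM. The median of the list labelled assembly factors, which includes chaperonins, MRL1 and CBBY, lies to the right of that line in both panels. The median of the green tissue markers lies to its left in both.

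Of the markers of green tissue, 7 of 8 fell in each warm regime over 22 °C, and of the markers of roots 2 of 7 rose. Over all genes, 13% were called lower and 55.5% higher at 32 °C, and 11.2% and 52.6% in the gradient. The 2 rises of root markers are thus a smaller share than that of all genes. The sum of the 8 green tissue markers was 518651 and 572273 in gradient shoots, 490463 to 525387 in 32 °C shoots, and 980209 and 991446 in 22 °C shoots, and none of the 8 was at 0 in any library. Their median log2 difference was -0.89 at 32 °C, beside 0.49 for all genes, of which 13% were called lower. CAB2 (LHCB1.1), an antenna protein, fell by 1.52 at 32 °C (adjusted p = 2.92e-05, limma). DRT112 (PETE2), a plastocyanin, did not pass (-0.04, adjusted p = 0.663). The sum of 7 root markers was 281529 and 222440 in gradient shoots, 202745 to 315362 in 32 °C shoots, and 62824 and 56011 in 22 °C shoots. Most of it was PYK10, a root beta-glucosidase, which with PHT1;1, a phosphate transporter, was 1 of 2 markers called higher, at 2.18 and 2.07 at 32 °C over 22 °C (adjusted p = 5.38e-05 and 7.07e-05, limma). The other 5 did not pass there: CASP1 and CASP4, Casparian strip proteins, had 0.05 and 0.50, TIP2;3 -0.23, NRT2.1 -0.10 and IRT1 -1.47. The median of the 7 was 0.05. The part of these marker values in the results for RBCS and RCA was not tested.

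Across the 7 distinct shoot libraries, the genes most like each member were read from 7251 genes with a mean of at least 1000, by Pearson r of log2(value + 1). These libraries share the split by temperature, so r is high for many genes and is given as a description. RBCS1A was most like CLPP4 (r = 0.998), AT3G05545 (0.995) and AT4G10810 (0.990). RBCS1B was most like EIF2 GAMMA (r rounding to 1), AT5G20200 and WTF1 (both 0.999). For RBCS2B they were ABCI18 (0.998), IQD31 (0.998) and CB5-E (0.995), and for RBCS3B they were AT4G01150 (0.991), EXPA1 (0.990) and AT5G12350 (0.985). RCA was most like HDH (0.998), AKR2B (0.998) and EPC1 (0.997). The members themselves were set aside in this search. Between members, r was 0.94 to 0.958 among the chromosome 5 genes, 0.893 to 0.979 between these and RCA, and -0.95 to -0.759 between RBCS1A and the other 4.

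In roots, the 5 genes were at trace levels next to shoots. RBCS1A had 99, 599 and 1245 normalised counts in gradient roots, 159, 401 and 133 in 32 °C roots, and 477 in the 22 °C root library. RCA had 446, 660 and 907 in gradient roots, 984, 1155 and 575 in 32 °C roots, and 539 in the 22 °C root library. The regimes overlapped for both genes. RBCS3B had 5, 39 and 362 in gradient roots, 20, 18 and 48 in 32 °C roots, and 30 at 22 °C. RBCS2B had 4, 19 and 147 in gradient roots, 13, 4 and 22 in 32 °C roots, and 16 at 22 °C. RBCS1B lay between 0 and 27 in gradient roots, between 0 and 9 in 32 °C roots and at 2 at 22 °C, too low for the filter of 10 in at least 2 columns, so 4 of the 5 were tested.

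None of these 4 was called in any pair of root regimes with limma, and none had an unadjusted p below 0.05. The 22 °C roots have 1 library, which was taken to vary like the others. Over all genes, 44% were called in 32 °C over 22 °C roots, 16.3% in gradient over 22 °C roots and 42.6% in gradient over 32 °C roots. RBCS1A had -1.22 at 32 °C over 22 °C (95% interval -3.98 to 1.53) and 1.04 in the gradient over 32 °C (-0.91 to 2.99), and RBCS2B had 1.07 in the gradient over 32 °C (-1.54 to 3.68). The call of RBCS1A in the gradient over 32 °C depended on the libraries kept. Without gradient root replicate 1, the lowest, RBCS1A was called higher in the gradient, by 2.08 (adjusted p = 0.0127, limma). Over the omissions of each root library in turn, this difference ran from 0.26 to 2.08, and no other omission gave a call.

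Gradient root replicate 3 held the highest RBCS sum of the root libraries, 1781, beside 108 and 663 in the other gradient roots, 197 to 423 in 32 °C roots and 525 at 22 °C. It also held the highest sum of the 8 green tissue markers, 4177, beside 934 and 2191 in the other gradient roots, 1053 to 2441 in 32 °C roots and 3115 at 22 °C. CAB2 stood at 290 there, against 7 and 18 in the other gradient roots, 18 to 28 at 32 °C and 44 at 22 °C. No green marker was at 0 in any root library. RBCS1A took 69.9% of the RBCS sum in that library and 91.7% and 90.4% in the other gradient roots, 62.7% to 94.8% in 32 °C roots and 90.9% at 22 °C. The part of green tissue RNA in the root values was not tested.

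**Figure D5:**
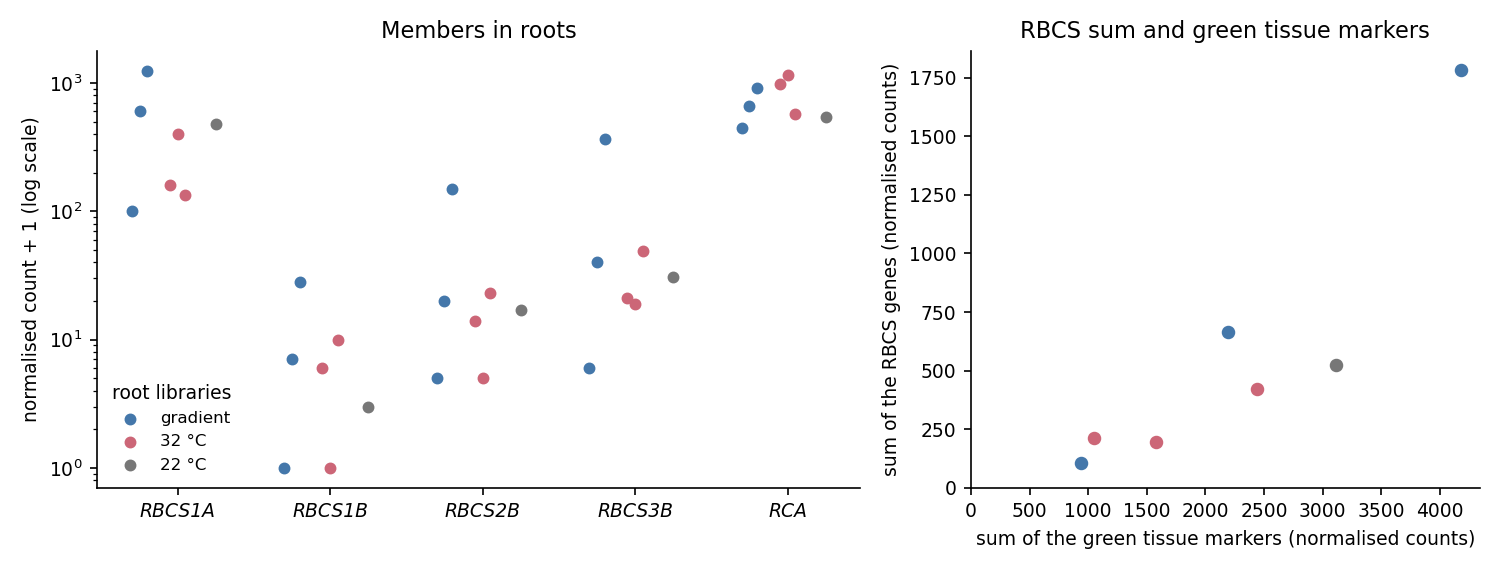
Left, normalised counts plus 1 of the 5 genes in root libraries (log y axis; gradient, 32 °C, 22 °C from left to right within each gene; 3, 3 and 1 points). Right, the sum of the 4 RBCS genes (y axis) against the sum of the 8 green tissue markers (x axis) in the same libraries; the gradient library at 1781 and 4177 lies highest on both axes.

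Shoots stood far above roots in every regime for all 5 genes. RBCS1B entered the fit of both organs through its shoot values alone, its root values being too low for the root filter, so no test of it between organs is given. The other 4 were called higher in shoots in every regime with limma. In the gradient the log2 difference of shoot over root was 9.08 ± 0.77 for RBCS1A (SE; adjusted p = 3.11e-07, limma) and 8.15 ± 0.29 for RCA (adjusted p = 1.52e-10). At 32 °C it was 10.03 ± 0.69 for RBCS1A (adjusted p = 4.56e-08, limma), 12.99 ± 0.90 for RBCS2B (adjusted p = 5.19e-08) and 7.74 ± 0.26 for RCA (adjusted p = 8.02e-11). At 22 °C it was 9.36 ± 1.03 for RBCS1A (adjusted p = 5.39e-06, limma) and 7.97 ± 0.38 for RCA (adjusted p = 6.08e-09). Over all genes, 33.4% were called higher in shoots in the gradient, 23.4% at 32 °C and 21% at 22 °C. RCA had the smallest difference of the 4 in each regime.

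Whether the response to a regime differed between the organs was tested directly. With limma, 0 of the 4 genes with testable root values passed for 32 °C over 22 °C, 0 for the gradient over 22 °C and 0 for the gradient over 32 °C, and 0 had an unadjusted p below 0.05, beside 27.1%, 26.2% and 27.2% of all genes called. For RBCS1A the difference in response (shoot minus root) was 0.68 at 32 °C over 22 °C (adjusted p = 0.716, limma) and -0.28 in the gradient over 22 °C (adjusted p = 0.892). In the gradient over 32 °C it was -0.96 (adjusted p = 0.514, limma). With each library left out in turn, that value ran from -1.995 to -0.18. RBCS1A passed only without gradient root replicate 1, at -1.995 (adjusted p = 0.0204, limma).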

How the data were processed

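The deposited values are scores: normalised counts that the authors rounded or left as whole numbers. Their normalisation, the build, and the treatment of strand and shared reads are not stated in the labels. Tools named, without role or order, per the submitters' processing notes are HISAT2, STAR 2.5.3a and DESeq2. Columns with equal values at all 32833 loci were counted once. Differences of log2(value + 1) were tested in limma 3.58.1 (R 4.3.3), on a scale that understates changes of low genes, with a variance trend, 1 fit per organ and 1 of both organs for comparisons between them. A gene entered where 2 or more columns of its organ reached 10, p-values were adjusted over all such genes by Benjamini-Hochberg, and those below 0.05 were called. Shares and ratios per library were compared by exact permutation (scipy 1.17.1). Gene names, coordinates and sequences came from RefSeq on TAIR10.1. The replicate numbers of 32 °C roots and shoots paired by the criterion set (correlations of deviations across genes 0.23, 0.34 and 0.36, each above 0.1). Those of 22 °C and gradient shoots did so too (0.21 and 0.21, equal because each group has 2 distinct libraries). Both are hints from the data, and the labels name no pairing. The members and gene lists were chosen with earlier results of these data known. From each list up to 3 called genes with the largest rise, 3 with the largest fall and 3 uncalled with the highest level could be named. TKL1 and GAPB were added beside named genes of the same enzyme. Alternatives were pseudocounts of 0.5 and 8, no filter, TMM (30% and 5% trims), equal totals, other sets of libraries, the replicate block and leaving out each library. ATCG00490 was left out of the list counts.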

Additional observations from a re-analysis of the deposited data

How the results depend on the processing

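Under TMM, 2 of the 5 genes were called in 32 °C over 22 °C shoots (5 as deposited), with RBCS3B at -0.0192 and RCA at -0.00506, and 2 in the gradient over 22 °C (5 as deposited), with RCA at -0.0172, since the rescaling lowers all differences by about the same amount. Over all genes the calls at 32 °C were 12141 higher and 2852 lower as deposited and 7095 higher and 6627 lower under TMM, and in the gradient 11510 and 2446 against 6333 and 5996. With all libraries of both organs in 1 fit, 0 of the 5 were called in 32 °C over 22 °C or in the gradient over 22 °C, with unchanged differences and the wider root spread in the error: RBCS1B then had adjusted p = 0.0521 and 0.0607 (limma). With only the groups compared, 3 were called in the gradient over 22 °C, and RBCS1A (adjusted p = 0.112, limma) and RCA (adjusted p = 0.0729) were not. The share of all genes called is not given for this fit or for the fit of both organs. A loss of calls particular to these genes therefore cannot be told from one common to all genes. With a pseudocount of 8, 1 organ difference was called at 32 °C over 22 °C and 1 in the gradient over 22 °C, RBCS1B in both, a gene that entered this fit through its shoot values alone, so these calls say nothing on its response in roots. The log2 difference of the RBCS sum, whose scaling alternatives were chosen after seeing the data, was -0.46 at 32 °C over 22 °C and -0.31 in the gradient over 22 °C under TMM, and -0.05 and 0.09 with equal totals.

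Leaving out 1 library at a time gave 5 called at 32 °C over 22 °C, 4 to 5 in the gradient over 22 °C, 0 in gradient over 32 °C shoots, 0 to 1 in gradient over 32 °C roots, and 0 to 1 for the organ difference of the gradient over 32 °C. With every library kept, 68.5%, 63.8%, 0.389%, 42.6% and 27.2% of all genes were called in these comparisons, in the same order. The shares of all genes without 1 library are not given. With 1 library left out, the share of RBCS1A differed by -21.3 to -19.2 points at 32 °C over 22 °C. In the gradient over 22 °C it differed by -23.0 to -20.9. The log2 ratio of RCA to RBCS differed by 0.40 to 0.51 and by 0.21 to 0.40. The replicate number met the pairing criterion between organs at 32 °C and between gradient and 22 °C shoots. With it as a block, 5 genes were called in both comparisons of warm with 22 °C shoots, and no call of a member changed. RBCS1A then had -0.59 at 32 °C (adjusted p = 0.0151, limma) and -0.46 in the gradient (adjusted p = 0.0361). Renumbering the libraries that stand for identical columns, chosen after seeing the data, changed none either. Differences never called changed sign in 32 single settings, 11 of them in roots, 20 in organ differences and 1 in shoots. Read depth is unknown, so the low root values carry no counting interval.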

Other observations

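Other pairs of related genes around Rubisco also stood in other proportions in warm than in 22 °C shoots, in ratios that no scaling of the libraries can move. These pairs were chosen after their values were seen, and reads shared between their members were not checked. Per 100 normalised counts of CA1 there were 34.3 and 42.1 of CA2, its fellow carbonic anhydrase, in gradient shoots, 31.4 to 39.6 in 32 °C shoots, and 111 and 117 in 22 °C shoots. Per 100 of GLDP2 there were 487 and 399.5 of GLDP1, both P-proteins of glycine decarboxylase, in gradient shoots, 467 to 552 in 32 °C shoots, and 160 and 144 in 22 °C shoots. For CP12-2 per 100 of CP12-1 the values were 23.9 and 26.6 in gradient shoots, 25.3 to 26.8 in 32 °C shoots, and 9.11 and 8.86 in 22 °C shoots. RbcX1 per 100 of RbcX2 stood at 29.1 and 31.6 in gradient shoots, 11.7 to 13.4 in 32 °C shoots, and 61.6 and 68.9 in 22 °C shoots. In each of these 4 pairs the warm libraries did not overlap the 22 °C libraries, and in the RbcX pair the gradient libraries did not overlap the 32 °C libraries either.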
